A study of Mus musculus with 30 samples.

Results

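Choroid plexus transcripts were followed as 9 genes of the 47643 in the table of microglial expression: *Ttr*, *Fxyd1*, *Prlr*, *Cox8b*, *Kl*, *Folr1*, *Enpp2*, *Clic6* and *Kcnj13*. The genes were listed by name. *Fxyd1*, *Prlr* and *Cox8b* were taken up because they were lower in male mice carrying Cre in these same data, and the others because they are known from the epithelium of the choroid plexus. The question was whether *Fxyd1*, *Prlr* and *Cox8b* follow *Ttr* from library to library. Levels are in FPKM, sequenced fragments corrected for transcript length and library size, and all 9 genes reached the mean of 0.1 FPKM required for testing.

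The choroid plexus is a fold of secretory epithelium in the brain ventricles that makes the cerebrospinal fluid and lets selected hormones and vitamins pass from blood to brain. Its cells make large amounts of transthyretin (*Ttr*), the carrier of thyroxine, and hold many pumps, channels and receptors. Microglia are macrophages of the brain tissue, and the epithelium has a different origin. The list also has limits as a marker set: *Enpp2* is made by oligodendrocytes too, and *Cox8b* is best known from heart, skeletal muscle and brown fat.

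Microglia were sorted as CD11b+ CD45med cells from the brains of 3 month-old mice, without cerebellum and olfactory bulbs, according to the methods of the study. The protocol filed with the samples instead describes cultured microglia of newborn pups, and the sorting described in the study was followed here. Homo mice were *Bin1* flox/flox::Cx3Cr1-Cre+, Het mice were *Bin1* wt/flox::Cx3Cr1-Cre+, and WT mice carried a floxed allele without Cre. Cre sits in the *Cx3cr1* locus, is expressed in macrophages as well as microglia, and is present in each Het and Homo mouse, so that an effect of Cre and one of *Bin1* loss cannot be told apart against WT. There were 5 WT, 6 Het and 5 Homo males, and 4 WT, 5 Het and 5 Homo females, with 1 library per mouse.

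The 8 microglial markers examined were high in the 30 libraries, with summed levels between 16856 and 24989 FPKM. The exception was *Cx3cr1* in Het-F-0206, at 13.9 FPKM against a median of 1164 FPKM, and results are also given without this library. Mouse numbers in the labels fall into 6 early and 24 late ones. The early mice are 3 male Homo, 2 male Het and 1 female WT, and the 5 male WT mice all have late numbers. The study states one depth for all samples in its methods. Read totals of single libraries were not analysed here, so the depth of each library is unknown and no counting error is given. A value of 0 means only that a gene is listed at 0. In bulk RNA, a smaller number of cells of one type cannot be told apart from less RNA per cell.

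The 9 genes lie on 6 chromosomes. *Fxyd1* (ENSMUSG00000036570) spans chr7:31051678-31057199 on the minus strand, *Prlr* (ENSMUSG00000005268) chr15:10177238-10349180 on the plus strand, and *Cox8b* (ENSMUSG00000025488) chr7:140898945-140900446 on the minus strand in GRCm38. *Kcnj13* (ENSMUSG00000079436), at chr1:87386363-87394729 on the minus strand, overlaps *Gigyf2* on the other strand. *Folr1* overlaps *Anapc15* in the same way, and *Enpp2* overlaps *Gm26684*. The cDNA kit does not mark the strand, so reads from such a pair cannot be told apart where the genes overlap. *Prlr* and *Clic6* each overlap 1 gene of their own strand, *Gm21973* and *2410124H12Rik*.

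The 250 bases before the start site are shown for the 3 genes in question and for *Kcnj13*, which followed *Ttr* closely, from RefSeq on GRCm38.p6 and in the direction of the gene. These are chr7:31054854-31055103 for *Fxyd1*, chr15:10223656-10223905 for the second of 3 *Prlr* starts, chr7:140900447-140900696 for *Cox8b* and chr1:87394730-87394979 for *Kcnj13*. The windows of *Fxyd1* and of this *Prlr* start lie inside the gene spans given above, which come from GENCODE, and not before the outer end of the gene. Capitals mark a TGTTTAC in *Prlr*, the core read by forkhead factors, and a TATAAA in *Kcnj13*, 29 bases before its start.
Fxyd1: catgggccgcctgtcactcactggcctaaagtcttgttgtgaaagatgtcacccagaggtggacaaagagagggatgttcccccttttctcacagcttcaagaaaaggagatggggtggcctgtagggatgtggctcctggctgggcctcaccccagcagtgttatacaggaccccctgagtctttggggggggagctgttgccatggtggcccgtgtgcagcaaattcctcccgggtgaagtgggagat
Prlr: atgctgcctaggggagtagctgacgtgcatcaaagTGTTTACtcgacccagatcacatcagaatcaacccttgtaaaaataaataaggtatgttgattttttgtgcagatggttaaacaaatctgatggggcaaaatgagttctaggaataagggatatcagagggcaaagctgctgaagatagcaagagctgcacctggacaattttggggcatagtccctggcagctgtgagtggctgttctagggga
Cox8b: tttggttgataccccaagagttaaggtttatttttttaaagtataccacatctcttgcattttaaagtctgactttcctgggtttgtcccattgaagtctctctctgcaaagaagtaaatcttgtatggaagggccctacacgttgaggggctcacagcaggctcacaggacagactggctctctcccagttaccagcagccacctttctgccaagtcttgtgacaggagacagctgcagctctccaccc
Kcnj13: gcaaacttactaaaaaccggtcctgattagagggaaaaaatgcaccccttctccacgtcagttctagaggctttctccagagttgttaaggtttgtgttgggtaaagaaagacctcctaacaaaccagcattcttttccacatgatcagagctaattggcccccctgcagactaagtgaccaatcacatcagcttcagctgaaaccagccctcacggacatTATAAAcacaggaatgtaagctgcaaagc

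The 3 motifs were searched on both strands of these windows and of those of *Kl* and the other *Prlr* starts: TAATCC, the core read by OTX2, a homeodomain factor of the choroid plexus, besides TGTTTAC and TATAAA. The letters TAATCC were in none of these 7 windows and in 6.252% of 32851 windows of the same length. TGTTTAC was in 1 of the 7, 215 bases before the second *Prlr* start, and in 3.166% of all windows. TATAAA was in 1 of the 7 and in 12.37% of all windows. These are matches of letters and say nothing on binding. For *Ttr*, *Folr1*, *Enpp2* and *Clic6* no window was used here.

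*Ttr* varied widely between mice of one group. In male WT mice it was 253.2, 121.8, 69.3, 64.3 and 0.17 FPKM. In male Homo mice it was 21.6, 13.8, 10.5, 5.22 and 0.0888 FPKM, and in the 6 male Het mice it ran from 0.92 to 18.9 FPKM with a median of 5.65. The 4 highest WT males were thus above each Cre-positive male, whereas WT-M-0258 was below all but 1 of them.

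In female WT mice *Ttr* was 116, 22.2, 0.68 and 0.28 FPKM. It was between 0 and 1.48 FPKM in female Het mice and between 0 and 2.37 FPKM in female Homo mice. A pair of the female WT mice stood above all Cre-positive females and the other pair lay within their range. The order of the group means (± SD) was male WT 102 ± 95.0 (n = 5), female WT 34.7 ± 55.0 (n = 4), male Homo 10.2 ± 8.21 (n = 5), male Het 6.96 ± 6.25 (n = 6), female Homo 1.02 ± 1.01 (n = 5) and female Het 0.53 ± 0.65 FPKM (n = 5). Each neighbour in this order overlapped the next.

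**Figure D1:**
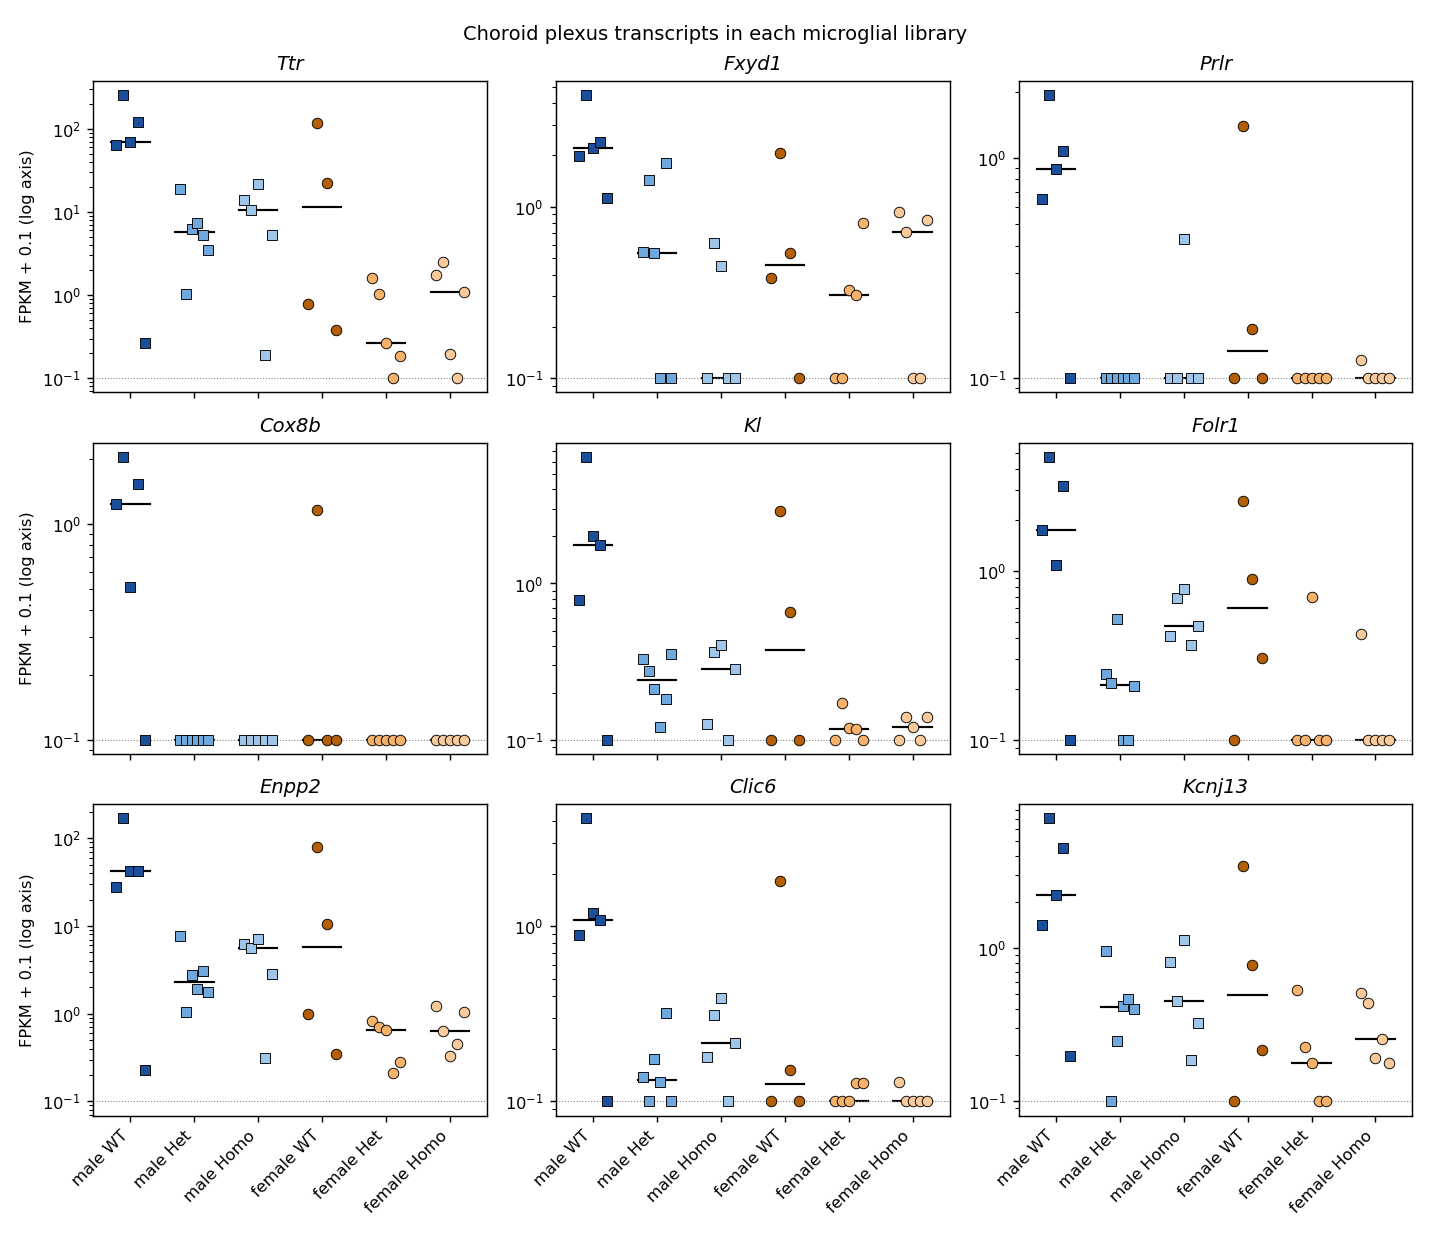
Each panel plots 1 transcript as FPKM + 0.1 on a log axis, with a point per library (squares male, circles female) and a bar at the median of each of the 6 groups; the dotted line is 0 FPKM. In each panel 4 male WT libraries and 1 female WT library are at the top, and the fifth male WT library, WT-M-0258, is with the low libraries except for Fxyd1, where it stands at 1.03 FPKM.

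Among the secreted products, *Enpp2* encodes autotaxin, which makes lysophosphatidic acid. It reached 168 FPKM in WT-M-0177, was 42.7, 42.3 and 28.0 FPKM in 3 other male WT mice and 0.13 FPKM in WT-M-0258. It was between 0.21 and 7.01 FPKM in male Homo and between 0.94 and 7.68 FPKM in male Het mice. The female WT mice had 79.3, 10.6, 0.90 and 0.25 FPKM, against at most 1.12 FPKM in Cre-positive females. *Kl* encodes klotho, a co-receptor of FGF23 that is also shed into the cerebrospinal fluid. It was 6.36, 1.90, 1.66, 0.69 and 0 FPKM in male WT mice and at most 0.31 FPKM in the 21 Cre-positive mice.

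Of the genes for transport, *Kcnj13* encodes the potassium channel Kir7.1 of the apical membrane. It was 6.94, 4.41, 2.13, 1.33 and 0.10 FPKM in male WT mice and at most 1.04 FPKM in Cre-positive mice. *Folr1*, the folate receptor that carries folate into the ventricles, was 4.62, 3.07, 1.63, 0.98 and 0 FPKM in male WT mice. It was between 0.26 and 0.68 FPKM in male Homo mice, and at 0 in 2 of the male Het mice. *Clic6*, a chloride intracellular channel protein, was 4.03, 1.09, 0.98, 0.79 and 0 FPKM in male WT mice and at most 0.29 FPKM in Cre-positive mice. For all 3, the same 5 WT mice were above the other 25 libraries. Of those 25, 13 were listed at 0 for *Clic6*, 12 for *Folr1* and 4 for *Kcnj13*.

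*Fxyd1* encodes phospholemman, a small regulator of the sodium pump that is also made in muscle and other tissues. It was 4.36, 2.27, 2.10, 1.86 and 1.03 FPKM in male WT mice. In male Homo mice it was 0.52, 0.35, 0, 0 and 0 FPKM, below all the WT males. The male Het mice had 1.69, 1.32, 0.44, 0.43, 0 and 0 FPKM, and a pair of them lay above WT-M-0258. In females the range was 0 to 1.95 FPKM in WT, 0 to 0.71 FPKM in Het and 0 to 0.84 FPKM in Homo mice, so that the groups overlapped.

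*Prlr* encodes the prolactin receptor, by which the epithelium takes up prolactin from blood. It was 1.83, 0.98, 0.79, 0.55 and 0 FPKM in male WT mice and 1.29, 0.0671, 0 and 0 FPKM in female WT mice. It was listed at 0 in the 6 male Het and the 5 female Het mice. In Homo mice it was above 0 in 1 male (0.33 FPKM, in Homo-M-0109) and in 1 female (0.0215 FPKM).

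*Cox8b*, a subunit of cytochrome c oxidase, was 1.94, 1.42, 1.14, 0.41 and 0 FPKM in male WT mice and 1.06 FPKM in 1 female WT mouse. It was listed at 0 in the other 25 libraries, WT-M-0258 and 3 female WT mice among them. No fold change of level is therefore given for *Cox8b*, nor for *Prlr* in Het mice. Both reached the mean of 0.1 FPKM needed to be tested only through the male WT libraries: over the other 25 libraries *Cox8b* had a mean of 0.0425 FPKM and *Prlr* of 0.0684 FPKM. The 7 other transcripts reached it without them. For *Kl* and *Clic6* the mean without male WT was 0.208 and 0.116 FPKM, with the most from WT-F-0192 (2.79 and 1.71 FPKM).

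The 5 libraries with the most *Ttr* were WT-M-0177, WT-M-0202, WT-F-0192, WT-M-0178 and WT-M-0176. They were also the 5 highest libraries for each of the 8 other transcripts, the 3 genes in question included. For *Fxyd1* the lowest of these 5 was 1.86 FPKM and the highest of the other 25 was 1.69 FPKM. For *Prlr* these values were 0.55 and 0.33 FPKM, for *Cox8b* 0.41 and 0 FPKM, and for *Enpp2* 28.0 and 10.6 FPKM. Since this ordering includes the difference between WT and Cre-positive mice that chose 3 of the genes, it is given as a description.

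Within these 5 libraries the transcripts were set against *Ttr*, which itself ran from 64.3 to 253.2 FPKM. *Fxyd1* was 1.68 to 3.02% of *Ttr*, *Prlr* 0.72 to 1.14% and *Cox8b* 0.59 to 1.77%. For the others the ranges were 34.7 to 68.5% for *Enpp2*, 2.06 to 3.62% for *Kcnj13*, 1.42 to 2.53% for *Folr1*, 1.07 to 2.75% for *Kl* and 0.81 to 1.59% for *Clic6*. As FPKM are per length, these are ratios of transcripts. The spread of each ratio was smaller than that of *Ttr* itself, and was widest for *Cox8b* and *Kl*.

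The ratio bears on the zeros of *Cox8b*. In the libraries next in the order of *Ttr*, WT-F-0200 (22.2 FPKM), Homo-M-0109 (21.6 FPKM) and Het-M-0100 (18.9 FPKM), the ratios of the top 5 would give at most 0.39, 0.38 and 0.33 FPKM of *Cox8b*. All of these are below 0.41 FPKM, the lowest value above 0 listed for *Cox8b* in any library. The zeros of *Cox8b* in these 3 libraries thus cannot be told apart from the same ratio to *Ttr* at a level under the lowest one listed. For *Prlr* the ratios would give 0.16 to 0.25 FPKM in WT-F-0200, where 0.0671 was listed, and 0.16 to 0.25 FPKM in Homo-M-0109, where 0.33 was listed. In Het-M-0100 they would give 0.14 to 0.22 FPKM, and *Prlr* was listed at 0 there although values down to 0.0215 FPKM were listed for it elsewhere. The ratio of *Prlr* to *Ttr* thus lay below the range of the top 5 in WT-F-0200 and Het-M-0100 and above it in Homo-M-0109.

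Over the 14 libraries with at least 5 FPKM of *Ttr*, *Enpp2* was between 24.5 and 68.5% of *Ttr* and *Kcnj13* between 2.06 and 7.06%. *Fxyd1* spread more widely, from 0 to 32.3% of *Ttr*. In libraries with little *Ttr*, *Fxyd1* was 1.03 FPKM in WT-M-0258 (0.17 FPKM of *Ttr*) and 1.32 FPKM in Het-M-0108 (0.92 FPKM of *Ttr*). *Fxyd1* thus had levels that did not go with *Ttr* in the lower libraries, whereas *Enpp2* followed *Ttr* down to about 1 FPKM.

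**Figure D2:**
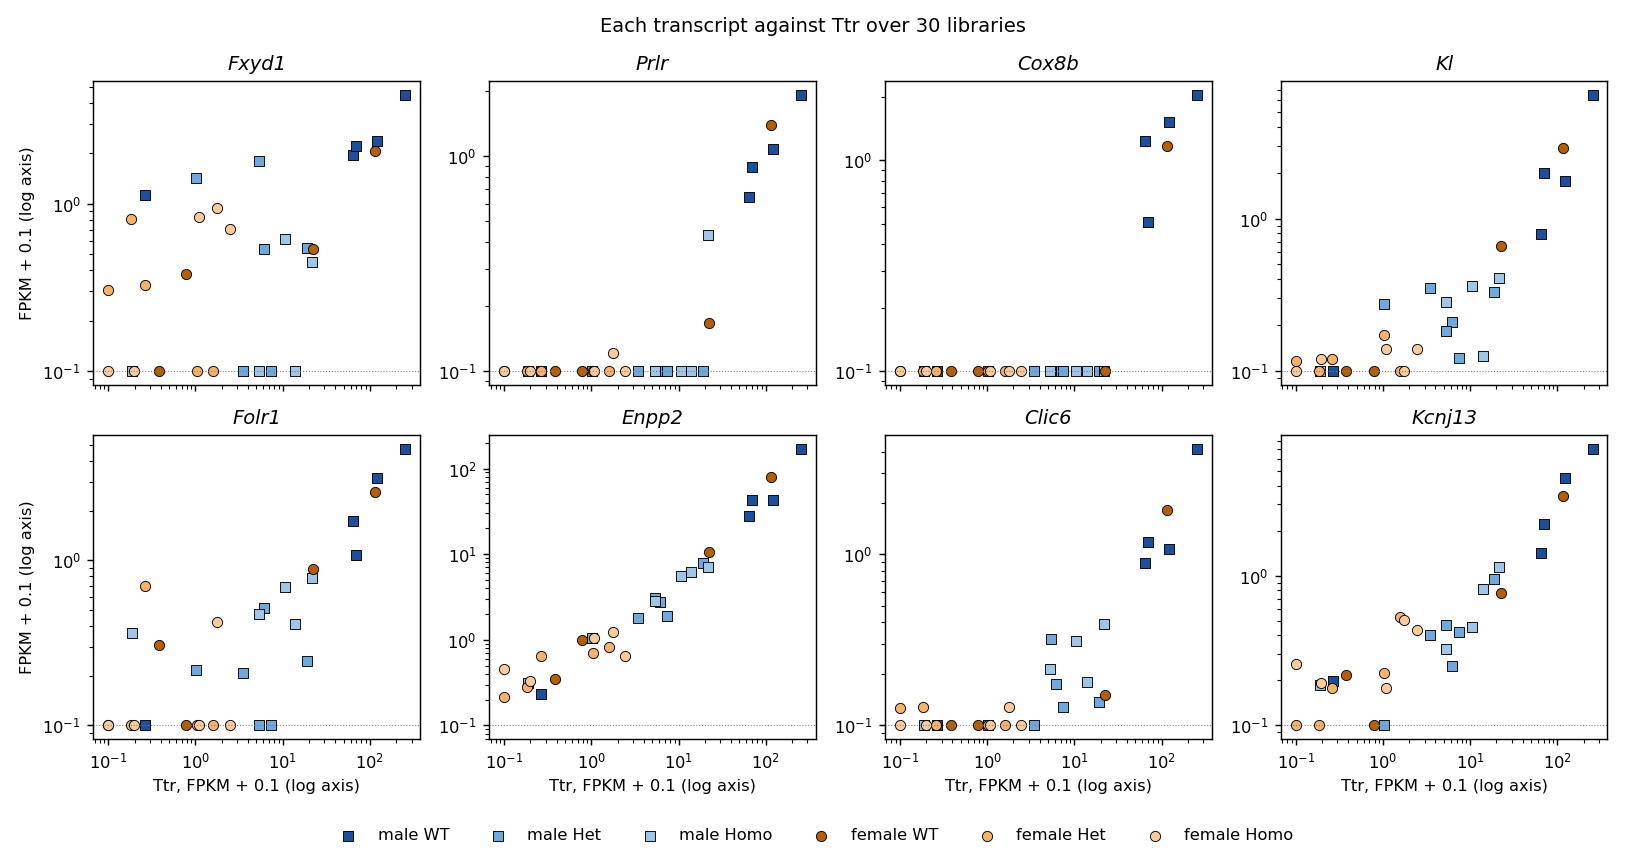
Each panel plots 1 transcript against Ttr, both as FPKM + 0.1 on log axes, with a point for each of 30 libraries coloured by group (squares male, circles female). Enpp2 rises with Ttr from about 1 FPKM of Ttr upward, and Kcnj13 rises over most of the range. Prlr and Cox8b leave the floor almost only in the 5 libraries at 64.3 FPKM of Ttr or more, and Fxyd1 is scattered below that level.

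To take the difference between groups out, each gene was fitted by limma with a mean per group and the log2 level of *Ttr* as a further term, and p-values were adjusted over 16896 genes. An unadjusted p under 0.05 was reached by 1126 genes. Only 11 genes (0.0651%) passed an adjusted p of 0.05, and all 11 rose with *Ttr*. Among them were *Enpp2*, *Kcnj13*, *Kl* and *Clic6*, and also *Prlr*. The slope, in log2 units per log2 unit of *Ttr*, was 0.77 (SE 0.05, adjusted p = 4.33e-11) for *Enpp2* and 0.46 (SE 0.05, adjusted p = 2.58e-06) for *Kcnj13*. It was 0.39 (SE 0.06, adjusted p = 0.0036) for *Kl*, 0.33 (SE 0.06, adjusted p = 0.0154) for *Clic6* and 0.28 (SE 0.05, adjusted p = 0.0404) for *Prlr*. As *Prlr* was at 0 in 22 of the 30 libraries and was tested only through the male WT libraries, its slope sets a few WT libraries against the floor and is a description. *Kl* and *Clic6* were at most 0.31 and 0.29 FPKM in the 21 Cre-positive libraries. Their slopes thus rest mainly on the WT libraries and are a description as well.

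*Folr1*, *Cox8b* and *Fxyd1* had positive slopes that did not pass over all genes. They were 0.34 (SE 0.08, adjusted p = 0.0973), 0.24 (SE 0.06, adjusted p = 0.155) and 0.22 (SE 0.10, adjusted p = 0.707) by limma. Like *Prlr*, *Cox8b* was tested only through the male WT libraries, so its slope is a description as well. The median slope of the 8 transcripts was 0.34, against 0.00 over all genes, of which 50.8% had a positive slope.

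Several of these calls depended on single mice. Without WT-M-0258, the one male WT mouse with little *Ttr*, the slopes of *Enpp2* and *Kcnj13* still passed (adjusted p = 3.09e-08 and 0.00037 by limma), whereas those of *Kl*, *Clic6* and *Prlr*, at 0.33, 0.26 and 0.22, no longer did (adjusted p = 0.553, 0.872 and 0.872). Without Het-F-0206 the same 5 transcripts passed, and with the early or late mouse number as a term they passed as well. In the 24 late mice alone *Enpp2*, *Kcnj13* and *Kl* passed, and *Prlr* and *Clic6* had slopes of 0.29 and 0.34 with an adjusted p of 0.118 by limma for both. Among the 30 fits that each left out 1 library, *Prlr* lost its call in 14, *Clic6* in 4 (WT-F-0192, WT-F-0207, WT-M-0177 and WT-M-0258) and *Kl* in that of WT-M-0258 alone.

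Deviations from the group means were also correlated over the 30 libraries, with two-sided permutation tests that shuffled libraries within groups (100000 shuffles). For *Enpp2*, Pearson's r was 0.95 and Spearman's rho 0.91, and for *Kcnj13* 0.89 and 0.90, each with p = 1e-05, the smallest these shuffles can give. Without the 2 libraries farthest from the median of *Ttr*, WT-M-0177 and WT-M-0202, r was 0.95 and 0.88. For *Fxyd1*, r was 0.40 (permutation p = 0.0268) and rho 0.34 (permutation p = 0.0960), and r without the same 2 libraries was 0.38. For *Folr1*, r was 0.67 (permutation p = 0.0046) and rho 0.57 (permutation p = 0.00837), with 0.62 for r without the 2 libraries. *Kl* had r 0.79 and rho 0.65 (permutation p = 0.00042 and 0.00314), and *Clic6* r 0.77 and rho 0.50 (permutation p = 0.00031 and 0.0104), with 0.77 and 0.75 for r without the 2 libraries. Like their slopes, the values of *Kl* and *Clic6* rest mainly on the WT libraries and are a description. Tests were run for 8 transcripts, and the values adjusted over all genes are those of the fit above. *Prlr* and *Cox8b* fell into libraries at or near 0 and 5 libraries above, so no correlation over all libraries is given for them.

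Among the 21 Cre-positive libraries, where *Ttr* was at most 21.6 FPKM, r with *Ttr* was 0.90 for *Enpp2* and 0.79 for *Kcnj13*. It was between 0.15 and 0.45 for *Fxyd1*, *Kl*, *Folr1* and *Clic6*. *Prlr* was above 0 only in Homo-M-0109 and Homo-F-0193, so no r is given for it. In the fit of these libraries alone, *Enpp2* rose with *Ttr* with a slope of 0.53 (SE 0.06, adjusted p = 0.00063 by limma), and *Kcnj13* had a slope of 0.38 (SE 0.08, adjusted p = 0.419). *Cox8b* was at 0 in all 21.

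The genes most like *Ttr* over deviations from the group means were counted among 16008 genes above 0 in at least 15 libraries. In falling order of rho they were *Enpp2* (0.91), *Kcnj13* (0.90), *1500015O10Rik* (0.75), *Slc2a12* (0.70), *Car12* (0.66), *Vmn1r4*, *Gm8297*, *Ccdc167*, *Kl* (0.65) and *Gtf2ird1* (0.65). Of these 10, *Enpp2*, *Kcnj13* and *Kl* belong to the 9 transcripts, and *1500015O10Rik* and *Car12*, a carbonic anhydrase, belong to the list of other choroid plexus genes.

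The genes most like *Prlr* were *Slc2a12*, *Clic6*, *Trpm3*, *Igf2* and *Kcnj13* (rho 0.67 to 0.62). All but *Slc2a12* are among the 9 transcripts or on the list of other choroid plexus genes. As *Prlr* was at 0 in 22 of the 30 libraries, these values mainly restate which genes share its few high WT libraries. The genes most like *Fxyd1* were *Sgsm3*, *Ttl*, *Gpr137c*, *Ppp1r1b* and *Lrp8* (rho 0.75 to 0.66), and none of these 5 is in either group. Values of rho among so many genes at low levels are a description.

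A list of 26 other genes of the choroid plexus epithelium gave a wider view. Of these, 25 were in the table and 18 reached the mean of 0.1 FPKM. Over the 25 genes the summed level was 46.7, 22.6, 16.5, 14.5 and 3.85 FPKM in male WT mice, 2.62 to 9.17 in male Homo and 2.97 to 8.12 in male Het mice. In females it was 2.79 to 21.9 FPKM in WT, 1.88 to 3.69 in Homo and 2.08 to 4.07 in Het mice. The 5 libraries highest for *Ttr* were the 5 highest for 13 of the 25 genes. Among these were *Sostdc1*, an inhibitor of BMP signalling, and *Otx2*, which was at 0 in 19 of the other 25 libraries. Also among them were *Kcne2*, a potassium channel subunit, and the water channel *Aqp1*, at 0 in 24 of the other 25. *Aqp1* did not reach the mean of 0.1 FPKM. As this ordering includes the difference between WT and Cre-positive mice, the count is a description, and no share over all genes is given for it.

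In the fit with *Ttr*, all 18 tested genes of the list had positive slopes (median 0.20). The slopes of 4 passed (0.0651% of all genes): *1500015O10Rik* at 0.47 (SE 0.07, adjusted p = 0.00093), *Igfbp2* at 0.40 (SE 0.07, adjusted p = 0.0153), *Car12* at 0.29 (SE 0.06, adjusted p = 0.0404) and *Sostdc1* at 0.28 (SE 0.06, adjusted p = 0.0404) by limma. *Igfbp2* encodes a binding protein of insulin-like growth factors. None of these 4 passed without WT-M-0258. Of the 18 genes, 9 reached the mean of 0.1 FPKM only through the male WT libraries, *Sostdc1* among them. A positive slope was thus favoured by their being tested, and the counts and the slope of *Sostdc1* are a description. The remaining genes that passed were *Slc2a12*, a glucose transporter, with a slope of 0.26, and *Lbp*, the binding protein of lipopolysaccharide, with 0.26. The latter was named after its value was seen.

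**Figure D3:**
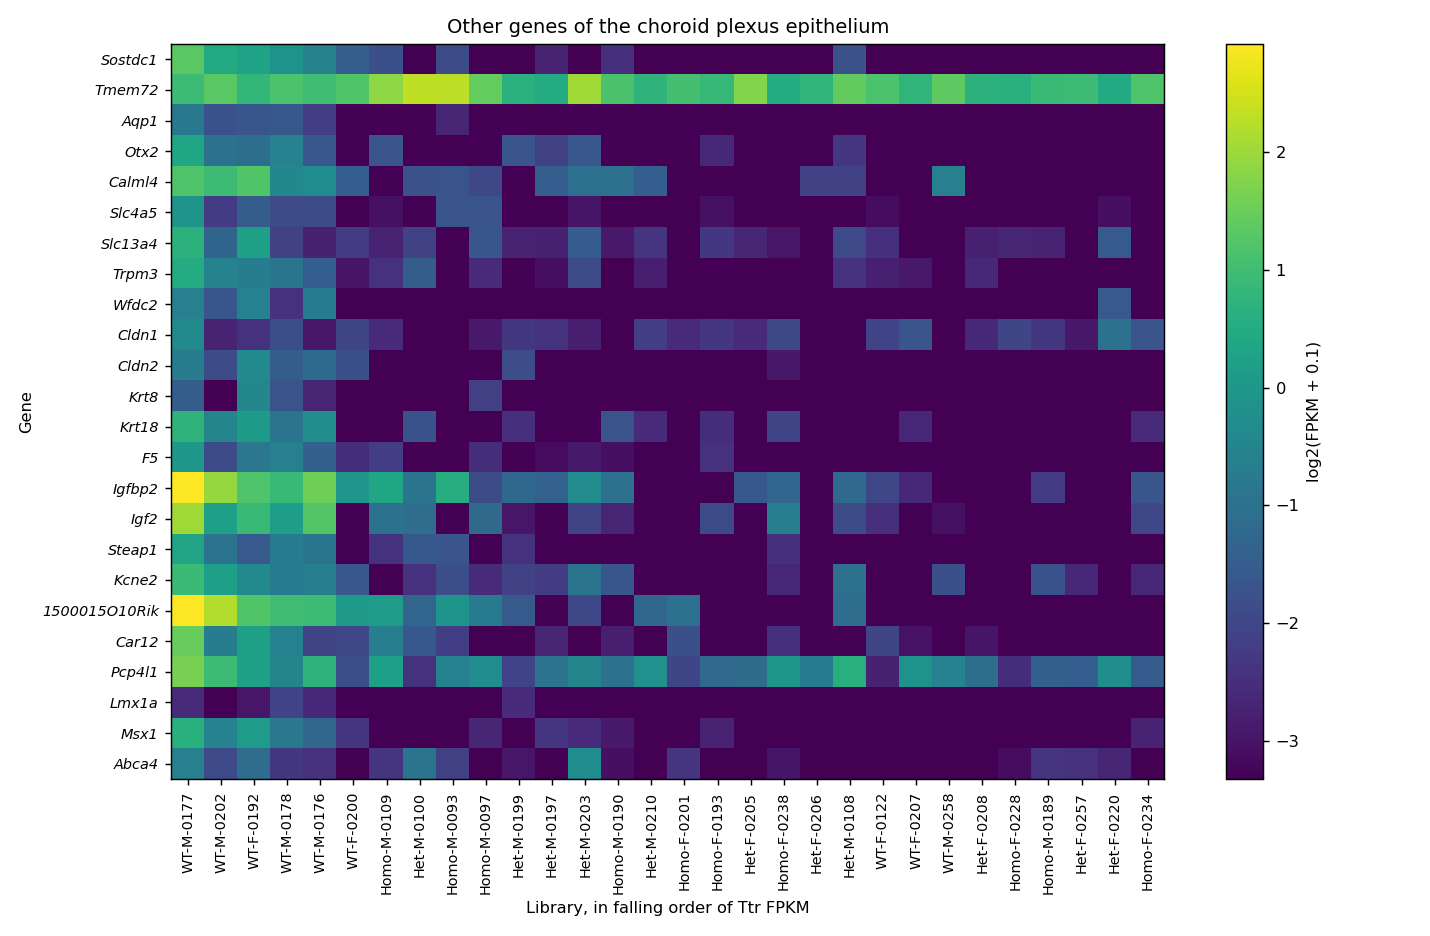
Rows are 24 of the other choroid plexus genes in the table and columns the 30 libraries in falling order of Ttr, with colour as log2(FPKM + 0.1). The 5 columns at the left are lighter than the rest for most genes, and Tmem72 is at 1.3 FPKM or more in every library.

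The slopes nearest to 0 on the list were those of *Cldn1*, *Tmem72* and *Pcp4l1*. *Tmem72* was between 1.30 and 4.88 FPKM in all libraries, with its highest value in Het-M-0100, and its slope with *Ttr* was 0.03 (SE 0.03). *Cldn1*, a tight junction protein, had a slope of 0.01 (SE 0.06). *Pcp4l1* had a slope of 0.09 (SE 0.07).

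Against WT, a gene was called where the adjusted p was below 0.05 and the fold change above 1.5 by limma. All 9 transcripts were lower in male Homo than in male WT mice, with a median log2 fold change of -2.40 against 0.03 over all genes, on the log2(FPKM + 0.1) scale. This is a description, as part of the list was chosen from this contrast. The log2 fold change was -3.55 (SE 0.86) for *Fxyd1*, -2.33 (SE 0.62) for *Prlr*, -2.79 (SE 1.55) for *Ttr*, -2.72 (SE 1.26) for *Enpp2* and -1.32 (SE 0.82) for *Folr1*. The SE of *Ttr* was the largest, since the male WT mice spanned 0.17 to 253 FPKM. The genes called were *Fxyd1*, *Prlr* and *Cox8b*, the same 3 that were taken up for being lower in these mice, so the calls restate that choice. Over all genes 1.81% were called and 0.645% were called lower, and nothing is read from the 3 of 9 against these shares.

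In male Het mice all 9 were again lower than in the same WT mice, with a median of -2.69 against 0.01 over all genes. The genes called were *Prlr* and *Cox8b*, both listed at 0 in the 6 Het males and both taken up for this difference, so these calls restate the choice as well. Over all genes 0.154% were called and 0.0296% were called lower. *Fxyd1* had -2.39 (SE 0.83), *Ttr* -2.77 (SE 1.49) and *Enpp2* -2.95 (SE 1.202). The Homo and Het contrasts share their WT mice. Homo and Het males could be compared on their own, and 0 of the 9 transcripts were called by limma between them (0% of all genes), with 0 at an unadjusted p under 0.05.

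The number of calls depended on mouse numbers and on single WT mice. With the early or late mouse number as a term, 0 of the 9 were called by limma in male Homo and in male Het mice (0.071% and 0.00592% of all genes called lower). In late mice alone 0 were called as well (0.0121% and 0%). The log2 fold change of *Ttr* was -2.99 (SE 1.78) in Homo and -2.88 (SE 1.57) in Het males with the term. In late mice alone, with 2 Homo and 4 Het males, it was -5.03 (SE 2.05) and -2.62 (SE 1.64). Without WT-M-0258, 7 of the 9 were called lower in male Homo mice, *Fxyd1*, *Prlr*, *Cox8b*, *Kl*, *Enpp2*, *Clic6* and *Kcnj13*, with 0.641% of all genes called lower. In male Het mice 7 were called lower as well, with *Folr1* in place of *Fxyd1* and 0.166% of all genes. The log2 fold change of *Ttr* became -4.53 (SE 1.36) in Homo and -4.51 (SE 1.31) in Het mice, and it was not called in either. Without WT-M-0177, the mouse with the highest levels, none of the 9 was called in either contrast (0.213% and 0% of all genes called lower), and the log2 fold changes of *Fxyd1* and *Prlr* in Homo mice were -3.29 and -1.93. Among the 10 fits of the Homo contrast that left out 1 library, *Fxyd1* lost its call in 4 (Homo-M-0093, WT-M-0176, WT-M-0177 and WT-M-0178), *Prlr* in 7 and *Cox8b* in that of WT-M-0177. Among the 11 of the Het contrast, *Prlr* lost its call in 9 and *Cox8b* in 7.

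**Figure D4:**
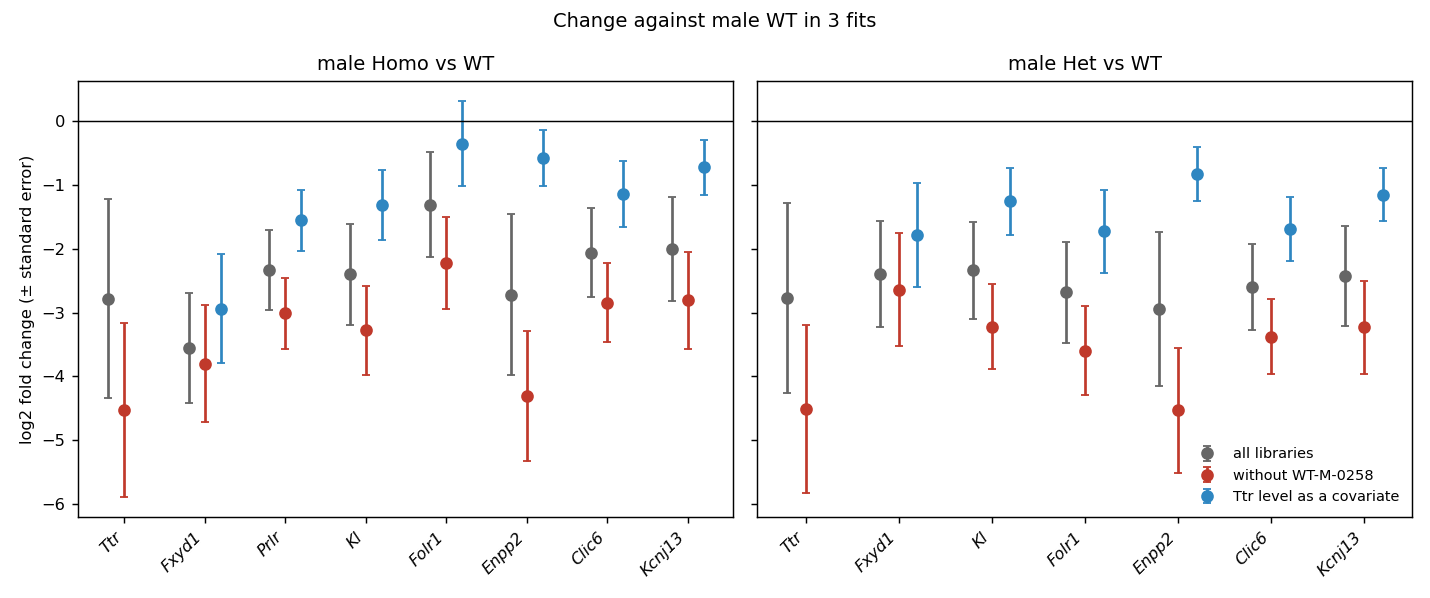
Points are log2 fold changes against male WT mice with their standard errors, for male Homo (left) and male Het mice (right), from all libraries (grey), without WT-M-0258 (red) and with the Ttr level as a further term (blue); Cox8b, and Prlr in Het mice, are left out as they are at 0 in the Cre-positive groups, and Ttr has no blue point. Without WT-M-0258 each change is larger, and with the Ttr term Enpp2 changes most, to -0.59 in Homo mice, and Fxyd1 least, to -2.94.

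When the level of *Ttr* was added to the contrasts, a fit chosen after the data were seen, the changes of the transcripts were smaller. In male Homo mice the log2 fold change went from -2.72 to -0.59 (SE 0.44) for *Enpp2*, from -2.004 to -0.73 (SE 0.43) for *Kcnj13*, from -1.32 to -0.36 (SE 0.67) for *Folr1* and from -2.40 to -1.32 (SE 0.55) for *Kl*. For *Prlr* it went from -2.33 to -1.56 (SE 0.48), and for *Fxyd1* from -3.55 to -2.94 (SE 0.85). In male Het mice it went from -2.95 to -0.83 (SE 0.42) for *Enpp2*, from -2.43 to -1.15 (SE 0.41) for *Kcnj13*, from -2.69 to -1.73 (SE 0.64) for *Folr1*, from -2.60 to -1.69 (SE 0.50) for *Clic6* and from -2.39 to -1.79 (SE 0.82) for *Fxyd1*. These values are a description, since *Fxyd1* and *Prlr* were chosen for the difference itself. With *Ttr* as a further term, 437 genes in all were called in male Homo mice, against 306 without it, and 22 in male Het mice, against 26.

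The other choroid plexus genes had lower values in most Cre-positive male mice as well. Of the 18 tested, 9 reached the mean of 0.1 FPKM only through the male WT libraries, so that a negative change was built into their being tested, and the counts below are a description. In male Homo mice 17 of the 18 tested had a negative log2 fold change (median -1.78) and 4 were called lower, where 0.645% of all genes were. *Calml4*, which reached the mean without the male WT libraries, was at -2.47 (SE 0.63, adjusted p = 0.0327 by limma). Its mean without them was 0.185 FPKM, with the most from WT-F-0192 at 2.23 FPKM, and it was at 0 in 14 libraries. Its value is a description as well. The other 3, *Trpm3* at -1.88 (SE 0.52), *Krt18* at -2.17 (SE 0.61) and *Msx1* at -2.06 (SE 0.56), did not reach it without them. *Calml4* encodes a calmodulin-like protein, *Trpm3* a cation channel, *Krt18* a keratin of simple epithelia and *Msx1* a homeodomain factor. Without WT-M-0258, 11 of 18 were called lower (0.641% of all genes), and without WT-M-0177 none of the 12 still tested was (0.213%). With the mouse number as a term or in late mice alone, 0 were called by limma (0.071% and 0.0121%). In male Het mice 17 of 18 were negative (median -1.72), and 0 were called by limma (0.0296% of all genes called lower). An unadjusted p under 0.05 by limma was reached by 14 of the 18, and by 2391 of all 16897 genes in either direction. Without WT-M-0258, 8 were called in Het mice (0.166%).

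In females the same directions were seen with wide errors. All 9 transcripts had negative log2 fold changes in Homo mice (median -1.13) and in Het mice (median -1.43), against 0.00 and 0 over all genes. None was called by limma in either contrast, where 0.071% and 0.13% of all genes were called. An unadjusted p under 0.05 was reached by 1 and 3 of the 9, and by 589 and 668 of all 16897 genes. Without Het-F-0206, 0 of the 9 and 0% of all genes were called lower in Het mice. *Ttr* had -3.09 (SE 1.65) in Homo and -3.81 (SE 1.65) in Het mice, and *Enpp2* -2.66 (SE 1.33) and -3.16 (SE 1.33). *Fxyd1* had -0.36 (SE 0.91) in Homo and -0.91 (SE 0.91) in Het mice.

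These female values rested on the mouse WT-F-0192, with 116 FPKM of *Ttr*. Without it the log2 fold change of *Ttr* was -1.60 in Homo and -2.32 in Het mice, and that of *Fxyd1* in Homo mice was 0.38. Of the other choroid plexus genes, 18 of 18 were negative in Homo and 17 of 18 in Het mice (medians -0.68 and -0.95), with 0 called by limma in both. An unadjusted p under 0.05 was reached by 2 and 5 of them, and by 589 and 668 of all 16897 genes. Between female Homo and Het mice 0 of the 9 were called by limma (0.0118% of all genes), with 0 at an unadjusted p under 0.05. The difference between the sexes in the change from WT was called for 0 transcripts and 0% of all genes, for Homo and for Het mice.

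Markers of other cells were examined beside these results. The 8 neutrophil genes had summed levels of 43.9 to 347 FPKM in male WT mice, 0.0449 to 80.8 in male Homo and 0.21 to 188 in male Het mice. Of their 6 tested members 4 were called lower in male Homo mice, namely *Ngp*, *Ltf*, *Lcn2* and *S100a9*, where 0.645% of all genes were. With the mouse number as a term 0.071% of all genes were called lower, and the neutrophil genes were not examined in that fit. Of the 5 libraries with the most *Ttr*, WT-M-0202, WT-F-0192 and WT-M-0176 had 347, 158 and 108.3 FPKM of neutrophil genes, and WT-M-0178 and WT-M-0177 had 46.7 and 43.9 FPKM. WT-M-0258, nearly without *Ttr*, had 71.2 FPKM. All 6 had positive slopes with *Ttr* (median 0.23), none of which passed by limma, with 1 at an unadjusted p under 0.05.

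The 7 markers of border macrophages, which live in the choroid plexus and meninges, summed to 29.7 to 57.4 FPKM in male WT mice and 25.1 to 46.7 in male Homo mice. WT-M-0258 had the lowest of the WT males. None of the 7 was called against WT in any contrast by limma. An unadjusted p under 0.05 was reached by 3 in male Homo and 4 in male Het mice, and by 3798 and 2391 of all 16897 genes. With *Ttr*, 6 of 7 had positive slopes with 0 called. The part of neutrophils and border macrophages in the results on choroid plexus transcripts was not tested.

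For ependyma, the ciliated lining of the ventricles, 3 of 8 markers reached 0.1 FPKM and the summed level was 1.17 to 4.30 FPKM in male WT mice and 1.09 to 2.55 in male Homo mice. *Foxj1*, the factor that drives its cilia, was at most 0.21 FPKM. None of the 3 was associated with *Ttr* by limma, with 1 at an unadjusted p under 0.05. The 8 oligodendrocyte markers, of interest for *Enpp2*, summed to 69.0 to 81.2 FPKM in male WT mice and 63.9 to 118 FPKM in male Homo mice, and the 7 tested all had negative slopes with *Ttr*, with 0 called by limma and 0 at an unadjusted p under 0.05. Astrocyte, neuron and microglia lists had 0 genes associated with *Ttr* by limma, with 0 at an unadjusted p under 0.05. Of endothelium, mural cells and fibroblasts, 3, 0 and 1 markers could be tested, with 0 associated with *Ttr* and 1 of the endothelial ones at an unadjusted p under 0.05. The endothelial gene under 0.05 was *Slco1c1*, a thyroxine transporter, with a slope of 0.26 (SE 0.06). *Pecam1* and *Flt1* had slopes of -0.02 (SE 0.02) and 0.11 (SE 0.07). *Slco1c1* was highest in WT-M-0177 (3.22 FPKM) and WT-M-0178 (0.96 FPKM), both among the 5 libraries with the most *Ttr*. It was called lower in male Homo mice, where 0.645% of all genes were, and its source was not tested.

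Muscle and brown fat markers were examined for *Cox8b*. *Myh4* was at 0 in all libraries, and *Ckm*, *Acta1*, *Tnnt3* and *Ucp1* were at most 0.35, 0.14, 0.44 and 0.20 FPKM. The other muscle-type subunits of cytochrome c oxidase, *Cox6a2* and *Cox7a1*, had their highest values in Het-F-0220 (6.35 FPKM) and Homo-M-0109 (2.51 FPKM), libraries in which *Cox8b* was listed at 0. *Cox8a*, the form of the same subunit found in most tissues, was between 97.01 and 168.3 FPKM in all libraries.

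Relatives of the transcripts were examined in the same way. Among 17 paralogues, 13 could be tested, and 0 were called in any contrast with WT or associated with *Ttr* by limma, with 3 at an unadjusted p under 0.05 for *Ttr*. *Fxyd5* was between 3.49 and 13.5 FPKM, *Clic1* between 196.8 and 323.0 FPKM and *Enpp4* between 6.72 and 10.1 FPKM in all libraries. Downstream of *Prlr*, the kinase *Jak2* was between 7.52 and 13.1 FPKM and *Stat5b* between 11.5 and 18.9 FPKM. Of the 7 signalling genes examined, 0 were called in any contrast with WT or associated with *Ttr* by limma, with 2 at an unadjusted p under 0.05 for *Ttr*, and *Cish*, a target of STAT5, was at most 0.56 FPKM.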

How the data were processed

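RNA of sorted microglia was sequenced in 30 libraries of 6 groups, named by their labels. The authors made SMARTer v4 cDNA and Nextera XT libraries, aligned reads to mm10 with OSA4, estimated abundance with RSEM, and deposited FPKM per gene on a linear scale. The labels also name TruSeq libraries. The table holds 6 columns that match no sample and were not used here. Counts and depth were not used here, so the count model of the study was not fitted.

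Libraries were scaled by the median of ratios (mean FPKM of 1 or more), and log2 was taken after adding 0.1. Tests covered 16897 genes (mean FPKM of 0.1 or more) in 1 limma 3.58.1 fit of all groups in R 4.3.3, with an intensity trend and Benjamini-Hochberg adjustment. Called genes passed an adjusted p of 0.05 and a fold of 1.5. The log2 level of *Ttr* was added to the group means to test association. Permutations used Python 3.11.15 and numpy 2.4.6. Positions came from GENCODE on GRCm38, whereas the study used an Ensembl model. Of 200 genes simulated with a 2.5-fold change between male Homo and WT mice, 70.5% were recovered among 16897 genes. Of 200 with a slope of 0.4 on *Ttr*, 96.5% were recovered among 16896. The changed genes were drawn from those with a residual SD below 1.5 on the log2 scale, and the noise was normal without a floor at 0. These shares thus do not carry over to genes with a wider spread, such as *Ttr* and *Enpp2*, or to genes at 0 in many libraries.

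The 9 transcripts and the gene lists were chosen with earlier results of these data known. Named genes are the 9, those of the lists, the 10 most like *Ttr* and the 5 each most like *Fxyd1*, *Prlr* and *Cox8b* by Spearman's rho. The genes most like *Cox8b*, and 1 gene of the choroid plexus list in the plot of that list, are not reported here. Alternatives were the pseudocount, filter, scaling, array weights, groups fitted, mouse numbers and leaving out each library. The fits of Cre-positive groups only and with *Ttr* in the contrasts were added after the data were seen.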

Additional observations from a re-analysis of the deposited data

Results flagged for a closer look

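Of 48 sets of values, 1 transcript in 1 group with values above 0, 17 had a library whose gap to its nearest neighbour was large for the range of the group (Dixon's test at 95%). For normally distributed values chance gives about 1 in 20. The levels were taken on the linear scale and many are 0, so this rate does not hold here and nothing is read from the count. The sets also share libraries. All 17 were the highest library of their group.

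In WT mice these were WT-F-0192 for *Prlr* (1.29 FPKM), *Cox8b* (1.06 FPKM), *Enpp2* (79.3 FPKM) and *Clic6* (1.71 FPKM), and WT-M-0177 for *Enpp2* (168 FPKM) and *Clic6* (4.03 FPKM). In male Het mice they were Het-M-0100 for *Ttr* (18.9 FPKM) and *Enpp2* (7.68 FPKM), Het-M-0197 for *Folr1* (0.42 FPKM) and Het-M-0203 for *Clic6* (0.22 FPKM). In male Homo mice *Prlr* stood out in Homo-M-0109 (0.33 FPKM). In females with Cre, Homo-F-0193 stood out for *Prlr* (0.0215 FPKM), *Folr1* (0.322 FPKM) and *Clic6* (0.0284 FPKM), Het-F-0205 for *Kcnj13* (0.43 FPKM), Het-F-0206 for *Kl* (0.0722 FPKM) and Het-F-0208 for *Folr1* (0.60 FPKM). For the values under 1 FPKM most of the group was at or near 0.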

How the results depend on the processing

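No paired analysis was possible because the groups share no mouse numbers. In the male Homo contrast the 9 transcripts gave 3 calls, and 1 with a pseudocount of 0.01, without a filter or with only the groups compared, and 0 with a mean of at least 1 FPKM, with the number range as a term or in late mice only. In the male Het contrast the 2 calls became 1 with a pseudocount of 1 or 0.01, without a filter or with array weights, and 0 with a mean of at least 1 FPKM, with only the groups compared, with the number range as a term or in late mice. The 4 other choroid plexus genes called in male Homo mice became 0 with a pseudocount of 0.01, a mean of at least 1 FPKM, only the groups compared, the number range or late mice, 1 without a filter, 2 without scaling, 8 with quantile normalization and 9 with array weights. A mean of at least 1 FPKM leaves few of these genes to test, and the cause was not tested for the rest. Leaving out 1 library gave 0 to 7 calls among the 9 in male Homo and in male Het mice, and among the other genes 0 to 11 and 0 to 8. All other contrasts kept 0 calls in each setting run. The share called over all genes is not given for most of these settings, so nothing about these genes is read from the changes in count.

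The slope on *Ttr* of *Prlr* no longer passed with a pseudocount of 0.01 (0.42), array weights (0.25), late mice (0.29) or without the 2 libraries farthest in *Ttr* (0.25). That of *Clic6* did not pass with a pseudocount of 0.01 (0.48), late mice (0.34) or without those 2 libraries (0.30), and that of *Kl* did not with a pseudocount of 0.01 (0.56). *Kcnj13* did not pass in Cre-positive groups only (0.38). With a pseudocount of 1, *Cox8b* (0.13) and *Folr1* (0.22) passed. *Cox8b* was tested only through the male WT libraries, so its slopes are a description. Leaving out 1 library gave slopes of 0.22 to 0.31 for *Prlr*, 0.15 to 0.29 for *Cox8b*, 0.33 to 0.42 for *Kl*, 0.25 to 0.39 for *Folr1* and 0.26 to 0.35 for *Clic6*. *Cox8b* and *Folr1* each passed in 1 of these 30 fits, without Homo-M-0189. The 4 other genes associated with *Ttr* became 9 with a pseudocount of 1, 2 with the number range as a term or in late mice, 1 with array weights or without the 2 libraries, 0 with a pseudocount of 0.01, a mean of at least 1 FPKM or Cre-positive groups only, and 0 to 4 with 1 library left out. Shares over all genes are not given for these settings, so nothing is read from these changes in count.

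The log2 fold change of *Fxyd1* in female Homo mice turned positive without Homo-F-0228 (0.10), Homo-F-0234 (0.10) or WT-F-0192 (0.38), and that of *Kcnj13* without WT-F-0192 (0.17). Leaving out 1 library gave -1.09 to 0.38 for *Fxyd1* and -1.55 to 0.17 for *Kcnj13*. With *Ttr* as a further term, *Fxyd1* (0.32) and *Kcnj13* (0.64) were positive in female Homo mice, and *Clic6* (0.18) and *Kcnj13* (0.32) in female Het mice. The fitted term of *Cox8b* there was 0.034, although it was listed at 0 in all 5 female Het libraries and was thus not higher than in WT mice. The depth of single libraries is unknown here, which limits values under about 0.4 FPKM, where many libraries are listed at 0.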
